A study of Mus musculus with 9 samples.

Results

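Melanocytes, the pigment cells of the skin, were sorted by flow cytometry from mouse epidermis, and 3 libraries from knockout back skin were compared with 3 libraries from control tail skin. The comparison ran over all 16299 genes of the deposited table and set 6 of its 9 libraries against each other, chosen by genotype and body site as the labels give them. The fit behind the calls took all 9, so that the knockout tail libraries share in the estimate of the spread. The control tail mice were Spry1flox/flox. The knockout back mice were Spry1flox/flox k14-Cre-ERT2, as were the mice behind the 3 knockout tail libraries, which served here to place each difference. The floxed alleles were thus common to all 3 groups, and no further agent, age or sex is given for any of them. Cre-ERT2 is a Cre recombinase that works only after an oestrogen receptor ligand is given, and the keratin 14 promoter drives it in basal keratinocytes, so the deletion was aimed at the cells around the melanocytes. Since back and control differed in genotype and in site at once, the contributions of genotype and site cannot be told apart. The labels do not say whether libraries of a group came from separate mice, so a p-value here reflects the spread of these libraries alone, and that spread may be technical.

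Spry1 encodes Sprouty1, an inhibitor of signalling from receptor tyrosine kinases to the ERK cascade. In mouse back skin most melanocytes sit in hair follicles, whereas tail skin also keeps melanocytes in the epidermis between follicles. Interferons raise the expression of genes that restrict viruses and intracellular microbes, as well as the class I molecules, which show peptides from inside the cell to T cells. The response is usually read from the expression of these target genes.

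The libraries differed in ways that bear on the values below. Control tail libraries totalled 70.0 to 72.4 M recovered counts (M, mega), knockout tail libraries 50.2 to 72.0 M and back libraries 50.9 to 60.8 M. At 0 counts were 4628 and 6127 genes in the first and second back libraries, where each of the other 7 had 854 to 1739 such genes. A shift between the third libraries of knockout tail and of back on one side and the other 7 on the other side had been removed before deposit, in every gene. Library values are therefore given as normalised counts, that is recovered counts divided by a size factor, which do not contain that step. Differences are given on the deposited log2 scale, which does contain it, and the removed shift was above 1 in 18.3% of genes. Neither of the third libraries on that side is a control, so the step can also have removed part of a difference from control. On this scale differences also understate the change of genes with few counts. A gene listed at 0 in a library was not detected at that depth, and a count of 0 allows up to 3 counts by counting error alone. Ddx3y, a Y-linked gene, had 0 counts in all 3 control libraries and normalised counts of 1267, 160 and 2256 in back, without overlap. None of 6 sex-linked transcripts was called, though 4 had a positive difference and 2 a negative one. Their median difference from control was 1.90 in back and 1.28 in knockout tail. A difference in sex between the groups could not be told apart from genotype and site, and its part in the results was not tested.

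Melanocyte genes were among the most abundant in all 6 libraries. Pmel, which forms the fibrils inside melanosomes, had normalised counts of 1196395, 1452704 and 724814 in control tail and 976673, 1007071 and 1041870 in back. Dct, an enzyme of melanin synthesis, had 1698144, 1778230 and 1555719 against 2081655, 2062543 and 1024834. Both genes overlapped between the groups. Transcripts of other skin cells were present too. The summed normalised count of 13 basal keratinocyte markers was 46701 to 106385 in control and 50228 to 214812 in back. For 16 hair follicle and sebaceous markers it was 84836 to 178131 in control and 175988 to 400538 in back, with 1 called member, Mgst1. Of these 16, 7 had a positive and 9 a negative difference, with a median of -0.11. The sum of 13 Langerhans and myeloid markers was 1535 to 3508 in control and 7466 to 28120 in back, which did not overlap. This list holds class II genes, H2-Aa and H2-Ab1 among them, so its sum is not separate from the class II values given below. Sums also did not overlap for 8 Schwann cell markers, 22838 to 26172 in control and 32696 to 54003 in back. Of these 8, however, 6 had a negative difference and 2 a positive one, with a median of -0.30. For 2 Merkel cell markers the sums were 0 to 166 and 480 to 5788, again without overlap. For 7 T cell markers they were 185 to 347 in control and 67, 2431 and 1639 in back. In these 3 lists 0 markers were called. No measured marker of these 6 lists was at 0 in all 6 libraries, Cd207, Itgax, Itgam and Aif1 were not analysed here, and the part of such cells in the results was not tested.

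Spry1 itself (chromosome 3, 37639947 to 37644598, plus strand, GRCm38) had normalised counts of 1510, 1074 and 1285 in control and 2283, 0 and 746 in back. The back libraries lay on both sides of the controls. The deposited level was 9.78 ± 1.84 in back against 10.5 ± 0.184 in control (SD, n = 3), and the exact two-sided permutation p was 0.9, where 3 against 3 libraries cannot go below 0.1. Cre is driven in keratinocytes and the RNA is from melanocytes, so these values are no check of the deletion.

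In back, genes of the interferon response and of class I antigen presentation were higher, together with some immediate early genes, and a mixed set of genes was lower, led by Prl2c5, a member of the prolactin family. The limma fit called 163 of 16299 genes at an adjusted p under 0.05, of which 63 were higher (0.387% of all genes) and 100 lower (0.614%) in back. All 163 had no overlap between the 3 back and 3 control libraries in deposited values, an arrangement found above control in 8.68% and below it in 20.8% of all genes. A difference of at least 1 on the log2 scale, here called large, was reached by 159 genes (0.976%), 62 higher (0.380%) and 97 lower (0.595%). The other 4 were Mlana at 0.97, Syngr1 at -0.97, Smpd1 at -0.84 and the unnamed model Gm43857 at -0.83. Over all genes the median difference was -0.23, and each gene's difference is best read against it. In bulk libraries fewer cells of a type and less RNA per cell cannot be told apart.

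These calls sat close to the threshold. The smallest adjusted p was 0.028, and 899 genes lay under 0.06 where 163 lay under 0.05. The count fell to 0 without any 1 of the 3 control libraries, without the first knockout tail library and without the first back library, to 1 without the second back library, to 11 without the second knockout tail library and to 87 without the third one. It was 2804 without the third back library. Without the first and second back libraries together it was 0. The 6 libraries of the comparison fitted alone gave 7 calls, all among the 163, and 51 of the 56 called genes named by rule missed the threshold there. With the library set (the 2 libraries set apart by the removed shift, or the other 7) as a term, 545 genes were called (3.34%). All 159 were among them. The set of 2 holds no control, so back is compared with control directly only within the set of 7. The back libraries of that set had 4628 and 6127 genes at 0. The remaining back library enters only by way of knockout tail. Being called with the set term is therefore no separate check of the 159. On recovered counts limma-voom called 317 genes, which held 98 of the 163, and 20.8% of its calls were higher, where the deposited values gave 38.7%, and the median over all genes was -0.93.

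Each large difference was then placed by the knockout tail libraries. Both comparisons share the control libraries, so the counts below are a description. Same direction in tail means that every knockout tail library lay beyond every control library on the side where back lay. Called only in back are genes for which that did not hold and for which back against knockout tail was itself called in the same fit with the same sign. Of the 62 higher genes, 26 were in the same direction in tail, 29 only in back and 7 in neither class. Of the 97 lower genes, 29 were in the same direction in tail, 51 only in back, 16 in neither class, and 1, Prl2c5, met both conditions. Over all genes, knockout tail lay above control with no overlap in 6.44% and below it in 9.37%, and back differed from knockout tail with a call in 0.411% of genes upward and 1.09% downward. Knockout tail against control had 0 calls of its own by limma (0%), with 4.99% of genes at an unadjusted p under 0.05, against 26.1% for back.

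The size of the tail difference is given as a description, since the classes are defined by the tail libraries. Higher genes in the same direction in tail had a median difference of 3.03 in back and 1.52 in knockout tail. For lower genes of that class the medians were -2.13 and -0.70. Higher genes of the class only in back had medians of 2.55 in back and 0.08 in knockout tail, and lower ones -2.14 and 0.10. The removed shift touched this placing. Of the 56 genes in the same direction, Prl2c5 included, 48 were so on normalised counts too, and in the fit with the set term 5 were called in knockout tail, namely Usp18, Oas1a, Ifitm3, Selenop and the unnamed 6330408M09Rik. Among the 80 genes placed only in back, 11 lay beyond all controls in knockout tail on normalised counts, H2-K1, H2-D1 and Tgtp1 with them. Of the 80, 50 kept their call against knockout tail with the set term.

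**Figure D1:**
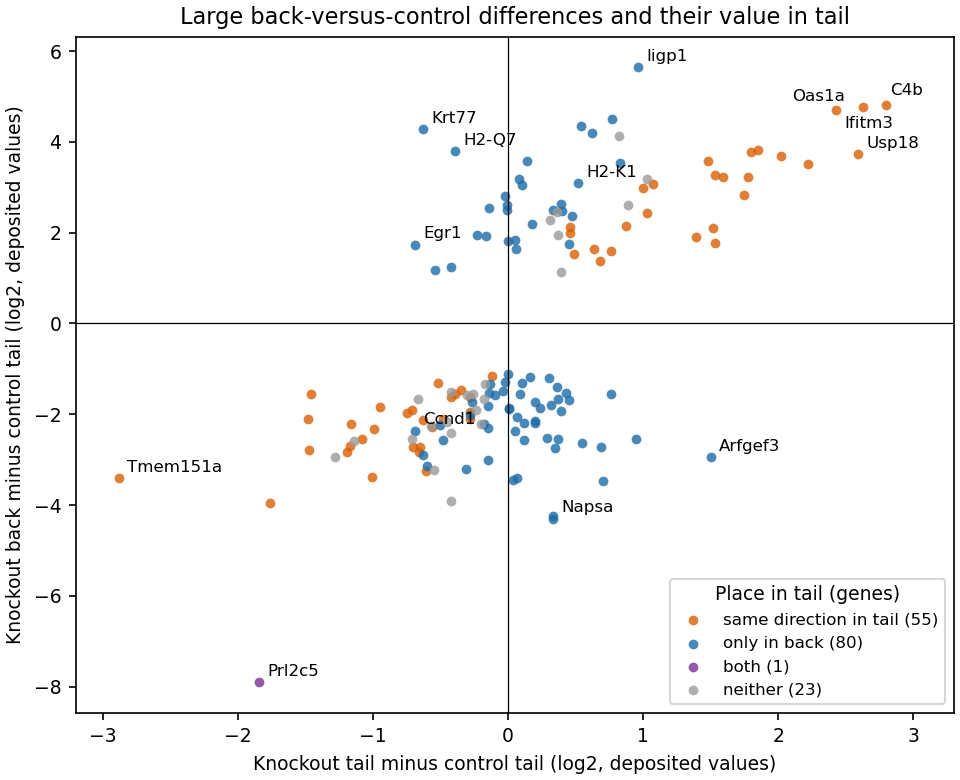
Difference from control tail of the 159 genes with a large difference, in knockout tail (horizontal axis) and in knockout back (vertical axis), both log2 on deposited values, 1 point per gene, coloured by place in tail. C4b, Ifitm3, Oas1a and Usp18 lie high in both, Iigp1, H2-Q7 and Krt77 lie high on the vertical axis with tail values of 0.96, -0.39 and -0.63, and Prl2c5 lies at -7.90 in back and -1.84 in tail.

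Interferon and class I genes made up 27 of the 62 large higher genes. The 5 lists that cover them held 88 measured genes, of which 27 were called higher, against 0.387% of all genes, and 0 lower, and 80 had a positive difference. These lists were chosen with earlier results of these data known, so their share of calls is a description and no independent evidence. Of the 27, 15 were in the same direction in tail, 8 only in back and 4 in neither class. Under an adjusted p of 0.06 lay 46 of the 88.

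Promoters of these genes are shown because they can be searched for the sequence that transcription factors activated by interferon are known to bind. The stretches below come from RefSeq promoter windows of 300 bases on GRCm38.p6, written 5′ to 3′ on the strand of the gene. Capitals mark GAAA, any 2 bases and GAAA again, the core of the interferon-stimulated response element, or its reverse complement. Oas1a, Bst2, Igtp and Stat2 were in the same direction in tail, and B2m and Tgtp2 in neither class.
Oas1a, chr5:120907505-120907570, minus strand: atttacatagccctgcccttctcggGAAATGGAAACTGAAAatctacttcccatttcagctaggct
Bst2, chr8:71537562-71537627, minus strand: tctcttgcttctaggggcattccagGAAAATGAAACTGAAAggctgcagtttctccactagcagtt
Igtp, chr11:58199497-58199556, plus strand: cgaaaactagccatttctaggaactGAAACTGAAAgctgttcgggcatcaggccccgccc
Tgtp2, chr11:49064248-49064307, minus strand: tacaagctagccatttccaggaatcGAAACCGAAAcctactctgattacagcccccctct
B2m, chr2:122147523-122147582, plus strand: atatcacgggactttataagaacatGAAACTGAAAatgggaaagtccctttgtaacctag
Stat2, chr10:128270251-128270310, plus strand: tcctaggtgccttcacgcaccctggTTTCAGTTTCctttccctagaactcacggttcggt
In Oas1a and Bst2 a pair of overlapping matches makes 1 longer run, and in Stat2 the match is on the other strand. The motif was in 392 of the 10863 genes with a RefSeq promoter (3.61%), searched on both strands. It was in 11 of the 20 interferon and class I genes of the large higher set with such a promoter (55%), in 2 of the other 26 higher genes (7.69%) and in 0 of 71 lower genes. By place in tail it was in 9 of 18 higher genes of the same direction (50%) and in 2 of 22 placed only in back (9.09%). TTCNNNGAA, the core of the gamma-activated site, was in 8.21% of all promoters and in 7 of the 20 interferon and class I genes (35%), where it can overlap the first motif. A match describes the letters of the window and shows no binding.

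Class I heavy chains and their light chain were higher in back. Of 12 measured genes of this list 6 were called, all higher, and the list's median difference was 2.49 in back and 0.31 in knockout tail. H2-K1, a classical class I heavy chain (chromosome 17, 33996017 to 34000347, minus strand), had normalised counts of 5882, 5705 and 5639 in control, 9937, 11334 and 12963 in knockout tail, against 66048, 64063 and 82413 in back. The back libraries stood far above the other 6, and knockout tail lay between. The difference from control was 3.10 (SE 0.31, limma adjusted p = 0.028), and that from knockout tail 2.58 (adjusted p = 0.021).

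H2-D1, the other classical heavy chain (chromosome 17, 35262730 to 35267499, plus strand), followed the same order with 47519, 56192 and 40431 in control, 71660, 88577 and 66386 in knockout tail, then 311051, 262611 and 270726 in back. Its difference from control was 2.37 (SE 0.27, limma adjusted p = 0.034). B2m, the light chain shared by class I molecules, had 75391, 88548 and 39400 in control, 126595, 166646 and 82358 in knockout tail, with 516159, 464120 and 262976 in back. Knockout tail overlapped the controls in B2m, back did not, and the difference of back was 2.62 (SE 0.39, adjusted p = 0.039).

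The nonclassical heavy chains H2-Q6, H2-Q7 and H2-T23 rose as well. H2-Q7 had 16, 193 and 13 in control, 10, 16 and 116 in knockout tail, against 5061, 10080 and 4566 in back. Control and knockout tail shared one low range and back stood alone above it, with a difference of 3.80 (SE 0.52, limma adjusted p = 0.036). H2-Q6 behaved in the same way, at 3.57. These genes are near-identical in sequence, so how reads were split between them is uncertain. H2-T23 was in the same direction in tail, with 3792, 2074 and 1150 in control, 7882, 10831 and 11853 in knockout tail, then 32413, 34501 and 29484 in back. The 6 members that missed the threshold had differences from -0.19 in H2-M3 to 3.05 in H2-Q10.

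Genes that supply class I molecules with peptide showed a smaller median, 1.08 in back and 0.51 in knockout tail, and all 14 had a positive difference. Psmb8 and Psmb9, catalytic subunits of the immunoproteasome, and Nlrc5, the transcriptional activator of class I genes, were the 3 called members. Psmb9 had 147, 192 and 7 in control, 744, 608 and 365 in knockout tail, with 4396, 3851 and 2465 in back, each group clear of the next. Its difference in back was 2.99 (SE 0.48, limma adjusted p = 0.042), and that of Psmb8 was 3.18. Nlrc5 was nearly undetected in control, with 3, 3 and 0, and reached 1255, 978 and 1110 in back. Tap1, a subunit of the peptide transporter, had 5346, 5 and 8681 in back, so the second back library lay below all controls, and its difference of 1.04 did not pass. Tapbp, the class I loading chaperone tapasin, stood at 1.99 with an adjusted p of 0.053.

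Interferon-inducible GTPases, which attack the vacuoles of intracellular microbes, had the highest median of the 5 lists, 3.24 in back and 1.11 in knockout tail. Of 12 measured, 7 were called, all higher. Iigp1 had 0, 4 and 0 in control, 146, 825 and 0 in knockout tail, against 17524, 16392 and 9111 in back. It was near absent in control, variable in knockout tail and high in all 3 back libraries. The difference from control was 5.64 (SE 0.66, limma adjusted p = 0.036) and that from knockout tail 4.69 (adjusted p = 0.024).

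Tgtp1 (chromosome 11, 48985327 to 48994172, minus strand) and its near-identical neighbour Tgtp2 could share reads. Tgtp1 had 244, 0 and 0 in control, 495, 357 and 576 in knockout tail, then 10880, 8152 and 17128 in back, a difference of 4.50 (SE 0.59, limma adjusted p = 0.036). The first control library alone of its group held reads. Ifi47 had 4, 0 and 0 against 9588, 2428 and 5191 in back, with 220, 230 and 0 in knockout tail. On deposited values both Tgtp1 and Ifi47 were placed only in back, while Gbp3, Gbp6 and Igtp, GTPases of the same group, were in the same direction in tail. On normalised counts, however, every knockout tail library of Tgtp1 lay above every control. Gbp3 had 120, 162 and 185 in control, 1249, 2777 and 6220 in knockout tail, with 17186, 8265 and 7153 in back.

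Antiviral effectors had a median difference of 2.11 in back and 1.34 in knockout tail, and all 27 measured had a positive difference in back. The 8 called members were Oas1a, Ifitm3, Oasl2, Oas1g, Parp14, Bst2, Ifi27 and Xaf1. Oas1a, which makes the second messenger that activates RNase L (chromosome 5, 120896256 to 120907521, minus strand), had 0, 3 and 3 in control, 1918, 2650 and 582 in knockout tail, against 8826, 11808 and 5220 in back. The 3 groups did not overlap, and the difference in back was 4.77 (SE 0.66, limma adjusted p = 0.036). Oas1g, its neighbour and close copy, had 0 in all 3 controls and 2345, 5113 and 1463 in back.

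Ifitm3, a membrane protein that blocks virus entry (chromosome 7, 141009586 to 141010770, minus strand), had 1776, 1112 and 683 in control, 9851, 14274 and 7420 in knockout tail, then 74046, 57427 and 31766 in back. Again the order was control, knockout tail, back in every library, with a difference of 4.71 (SE 0.63, adjusted p = 0.036 by limma). Parp14 was the exception among the 8, placed only in back, with 3, 0 and 215 in knockout tail, with 2551, 4730 and 1311 in back. Ifit3, an interferon-induced RNA-binding protein, had 3522, 2612 and 2883 in control, 26611, 37655 and 54325 in knockout tail, with 55051, 34285 and 27570 in back. Its difference was 2.94 in back and 2.96 in knockout tail, with an adjusted p of 0.053 in back that became 0.0086 with the set term. Knockout tail and back overlapped fully for Ifit3, unlike for Oas1a or Ifitm3.

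Receptors, signal transducers and regulators of interferon had a median difference of 0.83, with 3 of 23 called, all higher. Usp18, a protease for the modifier ISG15 that also restrains the interferon receptor, had 382, 191 and 180 in control, 3933, 5894 and 5160 in knockout tail, then 12181, 12899 and 9452 in back. The groups did not overlap, and the difference in back was 3.73 (SE 0.56, limma adjusted p = 0.039). Stat2, a transcription factor of the interferon response, was at 2.43, and both genes were in the same direction in tail. The receptor chains Ifnar1, Ifnar2, Ifngr1 and Ifngr2 had differences of 0.27, 0.86, -0.70 and -0.68, none of them called. Irf7, a transcription factor that amplifies the type I response, stood at 2.72 with an adjusted p of 0.054.

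**Figure D2:**
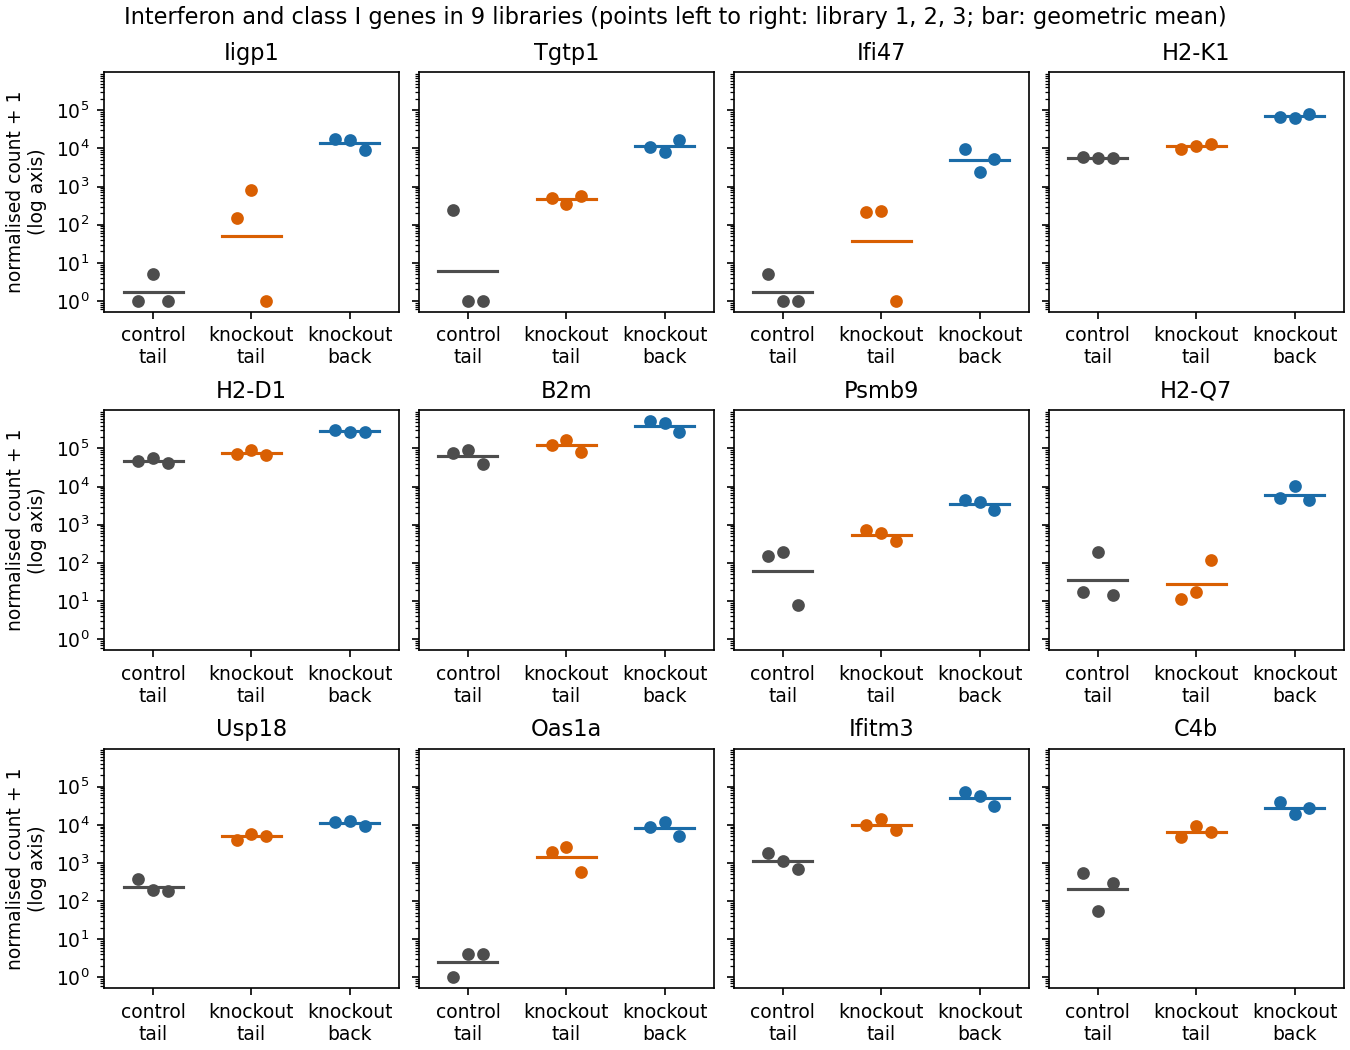
Normalised count plus 1 (log axis) of 12 genes higher in knockout back, in each of the 3 libraries of control tail, knockout tail and knockout back, with the geometric mean as a bar. Iigp1, Tgtp1, Ifi47 and H2-K1 rise mainly in back, while in Usp18, Oas1a, Ifitm3 and C4b knockout tail lies between control and back.

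Complement genes included some of the largest differences. C4b, a component of the classical complement pathway (chromosome 17, 34728380 to 34743882, minus strand), had 559, 55 and 304 in control, 4717, 9321 and 6524 in knockout tail, with 40232, 19655 and 28345 in back. The groups did not overlap, and the difference in back was 4.81 (SE 0.73, limma adjusted p = 0.039). Serping1, the inhibitor of the first complement component, was placed only in back, with 175, 40 and 76 in control, 575, 697 and 66 in knockout tail, against 9777, 3607 and 2803 in back. Of 12 measured complement genes these were the 2 called, 10 had a positive difference and the median was 0.68. C3, the central component, stood at 0.42 and was not called.

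Class II genes, which interferon-gamma can induce and which Langerhans cells express, need the marker values given above beside them. The Langerhans and myeloid list holds H2-Aa and H2-Ab1 itself, so its sum is no separate measure of such cells. H2-Aa, a class II chain, had 0, 5 and 0 in control, 0, 0 and 1281 in knockout tail, then 2954, 3159 and 3693 in back, with a difference of 3.06 (SE 0.56, limma adjusted p = 0.049). Cd74, the class II invariant chain, had 4, 134 and 2 in control and 1659, 4428 and 12517 in back, and missed the threshold at 2.68 (adjusted p = 0.054). Across the 13 markers differences ran from -0.57 in Epcam to 3.06 in H2-Aa and H2-Ab1, and 9 were positive. Their median was 0.46, or 1.84 on log2 of the normalised count plus 1, and 2 were called with the set term. Lyz2, Ctss and Tyrobp, myeloid genes outside class II, stood at 1.21, 1.18 and 1.15, Csf1r at -0.15 and Adgre1 at 0.02, none of them called.

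Immediate early genes separated back from knockout tail more than from control. Of 29 measured, 3 were called higher in back against control, and 10 were called higher in back against knockout tail. Medians were 0.67 in back and -0.43 in knockout tail. Fosb, an AP-1 subunit (chromosome 7, 19302696 to 19310051, minus strand), had 1210, 1396 and 1738 in control, 1899, 4115 and 7276 in knockout tail, with 14216, 10414 and 55551 in back. The third back library was the highest, all 3 lay above the rest, and the difference was 2.63 (SE 0.38, limma adjusted p = 0.039).

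Egr1, a transcription factor induced by ERK signalling, had 18467, 15647 and 14968 in control, 9023, 16132 and 21773 in knockout tail, against 50645, 53439 and 200406 in back, at 1.74 (SE 0.28, limma adjusted p = 0.042). Zfp36, which destabilises inflammatory mRNAs, was at 1.25. Junb, Atf3 and Fos missed the threshold at 1.04, 2.12 and 0.92, with adjusted p of 0.054, 0.057 and 0.079. Against knockout tail they were called, at 1.46, 3.50 and 1.47. These genes are known to respond to cell handling, and among 14 heat shock genes 0 were called against control, with a median of 0.46. Against knockout tail 2 of the 14 were called higher in back, beside 0.411% of all genes, with a median of 0.64. Hspa1a, an inducible chaperone, had 5512, 11601 and 3666 in control and 15989, 41821 and 201616 in back, so the third back library was again the highest. The part of handling was not tested.

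Other higher genes belonged to no single list. Krt77, a type II keratin of skin (chromosome 15, 101858731 to 101869705, minus strand), had 0, 415 and 3 in control, 0 in all 3 knockout tail libraries and 7547, 16675 and 2709 in back, a difference of 4.29 (SE 0.66, adjusted p = 0.040 by limma). It is a keratinocyte gene, and Krt14 beside it had 49089, 68147 and 23434 in control and 65570, 29212 and 82980 in back, where the ranges overlapped. Angptl4, a secreted inhibitor of lipoprotein lipase, had 0, 3 and 6 in control, 1547, 361 and 576 in knockout tail, then 3925, 7611 and 2304 in back, at 3.83. Hexa, a lysosomal enzyme, was in the same direction in tail at 1.65.

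Selenop, a plasma carrier of selenium, had 45542, 36984 and 48129 in control, 147234, 172262 and 178829 in knockout tail, with 178349, 164934 and 253585 in back. Knockout tail and back overlapped, at 1.53 and 1.77 above control. Bcl2, a survival factor of melanocytes (chromosome 1, 106538178 to 106714274, minus strand), had 2128, 1293 and 2596 in control, 2353, 2137 and 2193 in knockout tail, against 9702, 7974 and 9611 in back. Back alone stood apart, at 1.82 (SE 0.29, adjusted p = 0.042 by limma), and of 13 members of the Bcl2 family it was the single call.

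Malat1, a nuclear long noncoding RNA, had 402855, 366549 and 460305 in control, 263729, 328733 and 131447 in knockout tail, then 921546, 988450 and 448026 in back. Its deposited difference was 1.18 (SE 0.13, limma adjusted p = 0.028), but on normalised counts the third back library lay below the third control. The same held for Mgst1 and Gm28438, so 59 of the 62 large higher genes had the third back library above all controls on normalised counts (37.9% of all genes did). That count is largely set by the selection, since every called gene was without overlap in deposited values. In 6 of the 62 no control library had a count, among them Gm4951, Ccl27b and Tlcd5, and 12 had at most 5 counts in every control.

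Of the lower genes, many were undetected in the back libraries with the most genes at 0. Of the 97, 55 had 0 counts in the first and second back libraries, against 21.0% of all genes, and 25 had 0 in all 3, against 5.52%. The third back library, which had few genes at 0, lay below all controls on normalised counts in 96 (33.2% of all genes), the exception being Aqp3. These counts are likewise bound to the selection and support nothing further. Counts were above 0 in all 3 back libraries for 23.

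Prl2c5, a secreted protein of the prolactin family (chromosome 13, 13182715 to 13191923, plus strand), had the largest difference of all called genes. Its normalised counts were 166721, 182634 and 130454 in control, 23624, 36743 and 15429 in knockout tail, with 11, 20 and 98 in back. The 3 groups did not overlap, and control was far above back in every library. The difference from control was -7.90 (SE 0.84, limma adjusted p = 0.028), and that from knockout tail -6.06 (adjusted p = 0.023). Knockout tail against control was -1.84 and was not called. Its close relatives Prl2c2 and Prl2c3 stood at -2.73 and -1.59, the first called, with 2337, 997 and 1677 for Prl2c2 in control and 4533, 1647 and 1371 in knockout tail. Reads may have been shared among these near copies.

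Several genes present in control and knockout tail were nearly lost in back. Napsa, an aspartic protease (chromosome 7, 44572380 to 44586862, plus strand), had 5012, 5948 and 13279 in control, 8984, 9904 and 5202 in knockout tail, against 0, 0 and 181 in back, at -4.30 (SE 0.58, limma adjusted p = 0.036). Bfsp2, a filament protein known from the lens, had 4723, 4379 and 2955 in control and 0, 0 and 596 in back, at -3.48. Arfgef3 had 1566, 1043 and 1962 in control, 3811, 4014 and 9417 in knockout tail, then 4, 0 and 0 in back, so knockout tail and back lay on opposite sides of control. These and Mme, a membrane peptidase at -2.54, had been picked as low in back from earlier results of these data. The list of genes so picked held 5 measured genes. All 5 were called lower, so their being called is no independent evidence.

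Further genes of the class only in back had known roles in adhesion, transcription and the cell cycle. Itgb3, an integrin subunit, had 1189, 1356 and 963 in control, 952, 1037 and 1530 in knockout tail, with 0 in all 3 back libraries. Meis2, a homeobox transcription factor (chromosome 2, 115863064 to 116065839, minus strand), had 1753, 1120 and 1735 in control and 0, 0 and 15 in back, at -2.74 (SE 0.38, limma adjusted p = 0.036). Chaf1b, a subunit of the chromatin assembly factor that acts in S phase, had 3834, 3925 and 3833 in control and 0, 0 and 1372 in back. In each of the 3 genes the knockout tail libraries overlapped the controls or lay above them.

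Ccnd1 encodes cyclin D1, which drives entry into the cell cycle and is an output of the ERK cascade (chromosome 7, 144929931 to 144939925, minus strand). It had 19851, 15754 and 19679 in control, 9457, 8938 and 19625 in knockout tail, against 3533, 1938 and 5573 in back. All 3 back libraries were below all others, at -2.36 (SE 0.32, limma adjusted p = 0.036). Knockout tail was spread, with library 3 inside the control range. Of the 14 ERK output genes Egr1 was higher and Ccnd1 lower, the other 12 were not called, and the median was -0.01. Dusp6, a phosphatase of ERK and a common readout of the cascade, stood at 0.41. Among 28 genes of S phase and G2/M 0 were called, 25 had a negative difference, and the median was -1.08 in back, or -0.25 without the first and second back libraries.

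Lower genes in the same direction in tail numbered 29 of 97, Prl2c5 apart. Tmem151a had 3079, 4591 and 3127 in control, 0, 225 and 9 in knockout tail, then 0 in all back libraries, so it was nearly lost in both knockout groups, at -3.41 in back and -2.88 in tail. Wfdc18, a secreted protein with a protease inhibitor fold, had 3376, 6779 and 4301 in control, 1442, 158 and 1000 in knockout tail, with 0 in back. Tle1, a transcriptional corepressor, had 3064, 3866 and 4191 in control, 2110, 878 and 551 in knockout tail, against 4, 0 and 23 in back. In Wfdc18 and Tle1 knockout tail was intermediate. Aldoc, a glycolytic enzyme, was at -2.73 and was the single call among 17 glycolysis genes.

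Some lower genes were well detected in every back library, and these were picked after their values were seen. Ecm1, an extracellular matrix protein, had 82853, 106142 and 136445 in control, 56317, 62446 and 55044 in knockout tail, then 17378, 24171 and 11654 in back. Gsn, the actin-severing protein gelsolin, had 91219, 120405 and 91181 in control, 38068, 45910 and 65049 in knockout tail, with 27266, 22118 and 29355 in back. Cdh13, an anchored cadherin, had 21662, 27162 and 25895 in control, 11935, 10032 and 11476 in knockout tail, against 2162, 3505 and 887 in back. The order control, knockout tail, back held in every library of these 3 genes on normalised counts, with differences in back of -2.23, -1.84 and -2.89. On deposited values Gsn was in the same direction in tail, while Ecm1 and Cdh13 were placed only in back. Gpr137b, a lysosomal membrane protein, differed in form, with 46222, 42786 and 50081 in control, 52789, 57443 and 84134 in knockout tail, then 15495, 15874 and 16585 in back, at -1.53 (SE 0.17, limma adjusted p = 0.028).

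**Figure D3:**
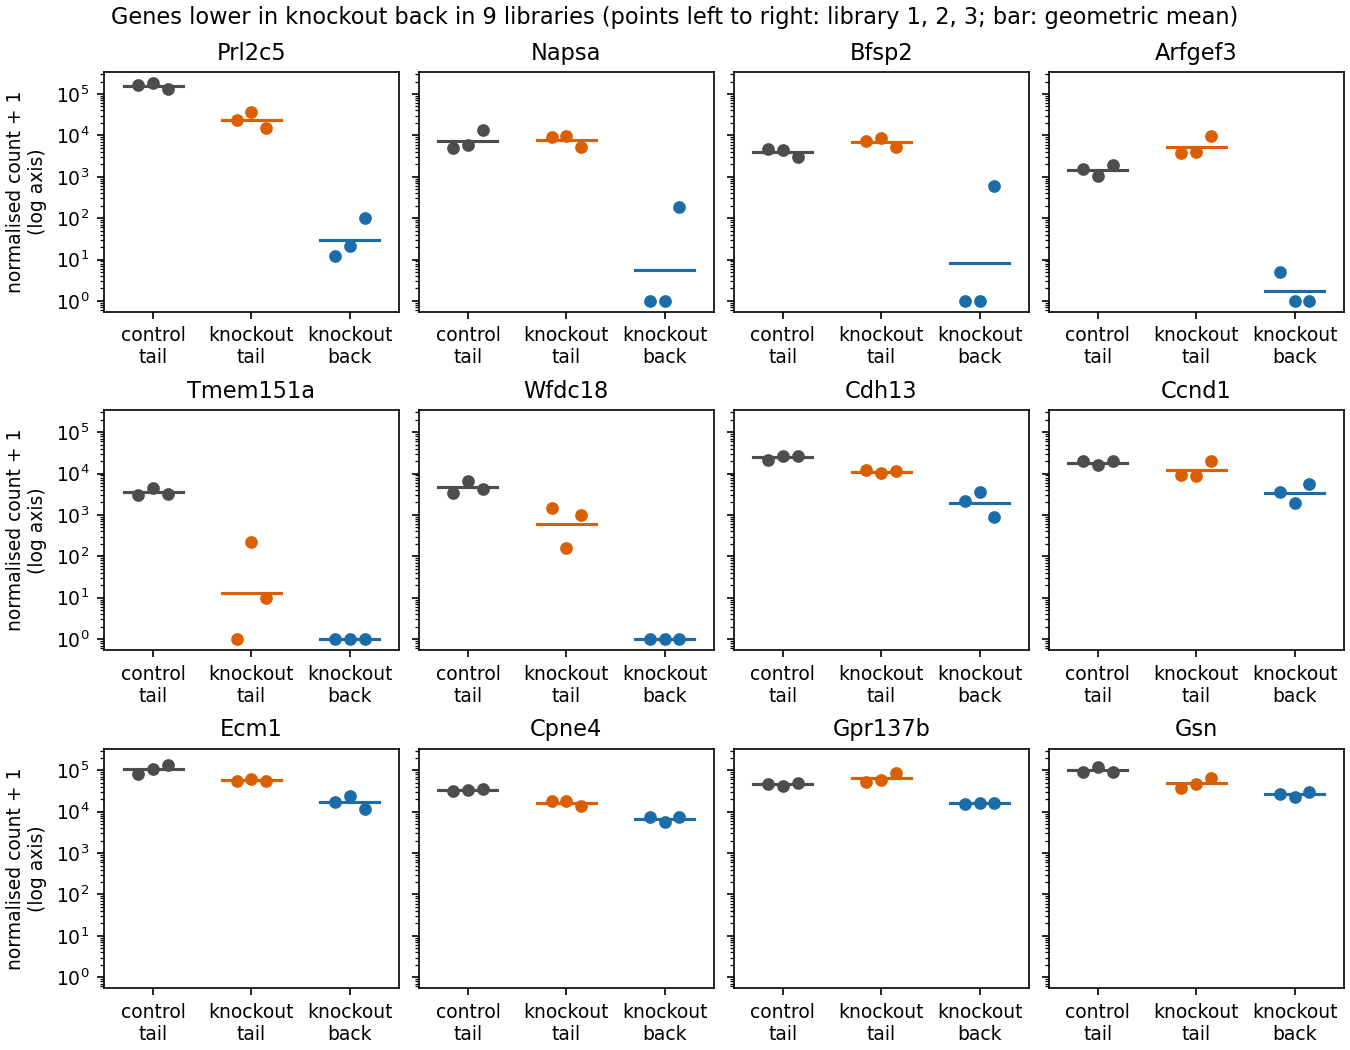
Normalised count plus 1 (log axis) of 12 genes lower in knockout back, in each of the 3 libraries of control tail, knockout tail and knockout back, with the geometric mean as a bar. Prl2c5 falls from at least 130454 in control to at most 98 in back, Napsa, Bfsp2 and Arfgef3 fall in back alone, and Ecm1, Cpne4, Gpr137b and Gsn are lower in back while well detected in all 9 libraries.

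Calls among pigment and lineage genes are to be read beside 0.387% of all genes called higher and 0.614% lower. The lack of a call does not show that the other genes were alike. Of 12 genes of melanin synthesis Mlana alone was called, or 3 with the set term. Mlana, a melanosomal membrane protein (chromosome 19, 29697824 to 29708634, plus strand), had 305630, 321553 and 266368 in control, 319579, 316496 and 181280 in knockout tail, with 633897, 597628 and 353409 in back. All back libraries were above all controls, at 0.97 (SE 0.12, limma adjusted p = 0.036). Tyr, the rate-limiting enzyme of melanin synthesis, stood at -0.41, Tyrp1 at 0.25, Dct at 0.33 and Pmel at -0.20, with adjusted p from 0.11 to 0.59.

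Among 20 genes of melanosome biogenesis and transport, Trpm1, a channel of pigment cells, was the single call, with 45268, 43844 and 36590 in control, 65220, 69349 and 165408 in knockout tail, against 151971, 125929 and 169928 in back. Its difference of 1.38 was in the same direction in tail. Of 16 melanocyte transcription factors 0 were called. Mitf, the main factor of the lineage, had 10400, 8557 and 7800 in control and 17331, 17629 and 14654 in back, without overlap, at 0.83 (adjusted p = 0.059 by limma). Sox10 stood at 0.15.

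Receptors were mixed. Met, the receptor of hepatocyte growth factor, was called higher at 1.54, with 2185, 2544 and 3194 in control, 4399, 3674 and 14674 in knockout tail, then 12173, 9107 and 21946 in back. Kit, the receptor of stem cell factor, had 22118, 12819 and 15066 in control, 32525, 37004 and 54245 in knockout tail, with 33965, 56421 and 57428 in back, at 1.19. That difference missed the threshold at an adjusted p of 0.059 and passed it at 0.045 with the set term. Ednrb, the endothelin receptor of melanocytes, stood at 0.64 and was not called. None of the 6 measured Sprouty and Spred genes was called, with Spry2 at 0.15 and Spry4 at 0.04.

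**Figure D4:**
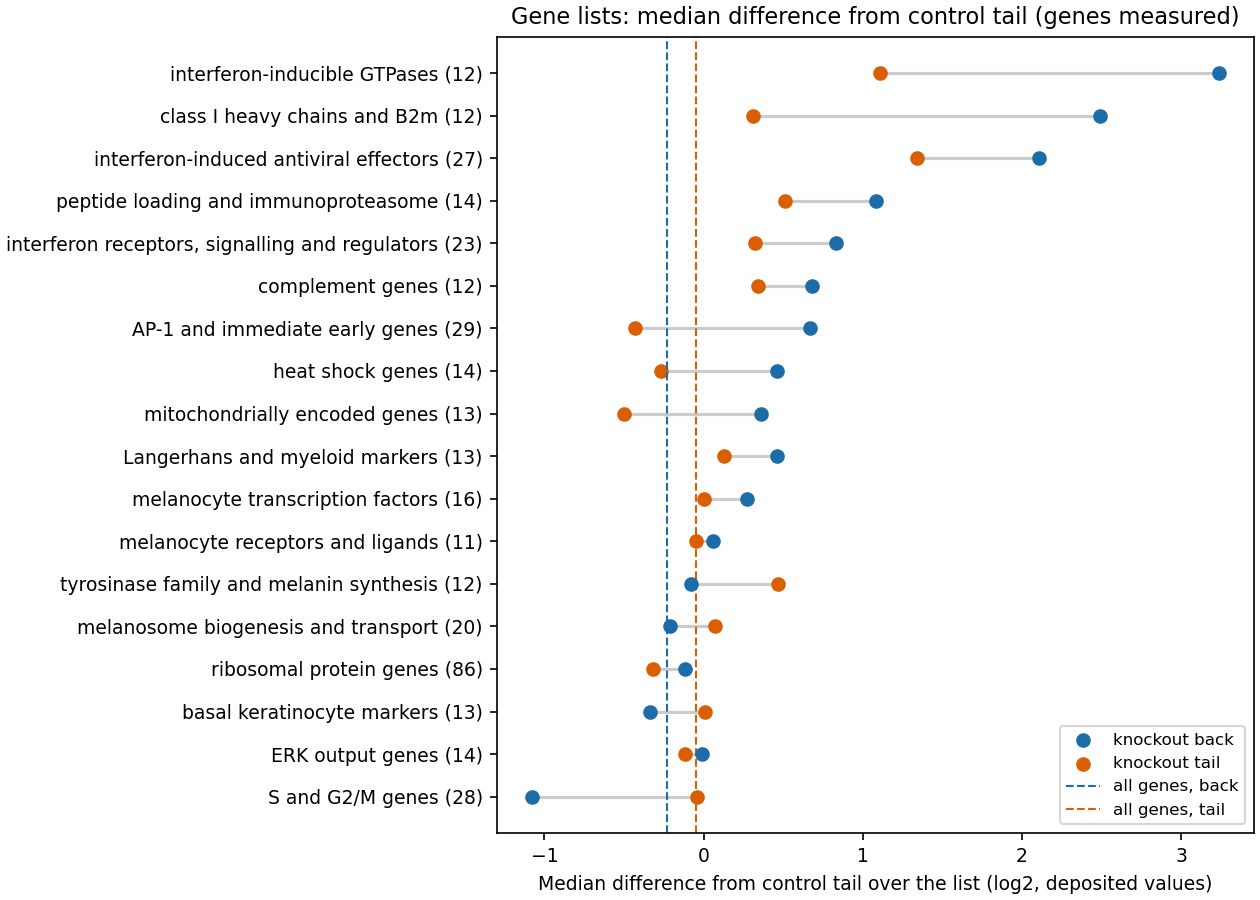
Median difference from control tail over each of 18 gene lists (log2, deposited values), for knockout back and knockout tail, with the number of genes measured and dashed lines at the medians over all genes, -0.23 in back and -0.05 in tail. The 5 interferon and class I lists lie to the right in back, from 0.83 to 3.24, the pigment lists lie near 0, and genes of S phase and G2/M lie at -1.08.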

How the data were processed

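RNA from sorted melanocytes was made into libraries with a SMART-Seq v4 kit and sequenced paired-end, per the labels' protocols. The submitters' processing notes name DESeq2 and GRCm38, without version or role, and neither the aligner nor the counting is given in the sources used here. The deposited values are on a log2 scale, and how the authors made them was inferred from the values. They follow a variance-stabilising curve with 7.98 at 0 counts. The third libraries of knockout tail and of back have, gene by gene, the mean of the other 7 to within 7.14e-09. Undoing both gave counts within 0.02 of whole numbers for all 16299 genes, and the recovery was tested on simulated data.

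The test was limma 3.58.1 (R 4.3.3) on the deposited values, with trend and robust moderation, over all 9 libraries, group as the only term, and Benjamini-Hochberg adjustment over all genes with a threshold of 0.05. Spry1 was tested by an exact permutation test. Symbols and coordinates are from GENCODE M21 (GRCm38, counted from 1) for 15904 genes, 305 symbols are from RefSeq, and 90 are as deposited.

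Members, gene lists and alternatives were chosen with earlier results of these data known. Named were Spry1, the 10 largest differences in each direction, the 5 largest of each class by place in tail, at most 6 called members of each of 45 lists, and reference genes. The 10 largest and the 5 of each class had to be large, without overlap, with a mean normalised count of at least 100 in the higher group. They also needed a call with the set term and a symbol other than a Gm number or Rik clone. List members needed a call alone, and Spry1 and the reference genes had no condition to meet. Genes outside that rule were named after their values were seen. Of the genes this rule names, 1 is not reported here.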

Additional observations from a re-analysis of the deposited data

How the results depend on the processing

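No large difference changed sign under any alternative, which their lack of overlap largely fixes. The calls did change. Against 163 genes called, 56 in the same direction in tail, 80 only in back and 27 in the interferon and class I lists, the library set term gave 545, 233, 52 and 45. No trend or robust moderation gave 471, 154 and 160 for the first 3, quantile normalisation 579, 188, 132 and 49, array weights (5.06 for the third back library against 0.24 and 0.16 for the others) 903, 158, 319 and 46, and genes above the lower quartile 557, 183, 160 and 46. With log2 of the normalised count plus 1 there were 338 calls, 98 of them among the 163, and 129 in the same direction, and with plus 10, 257 calls, 107 of them among the 163, 114 in the same direction and 35 only in back. The 6 libraries alone gave 7 calls and 3 in the lists.

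Leaving out 1 library gave 0 to 2804 calls, 0 to 597 in the same direction, 0 to 1374 only in back and 0 to 52 in the lists. So left out, Spry1 ran from -1.38 to 0.35, Pmel from -0.49 to 0.01 and Krt14 from -0.74 to 0.04. Without the first and second knockout back libraries each of the 4 counts was 0. At a difference of at least 2, 48 genes were only in back, and 39 in the same direction. Taking the same direction in tail by the sign of the mean gave 114 in the same direction and 45 only in back.

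Some alternatives were chosen after seeing the data. Limma-voom on recovered counts gave 317 calls (98 of the 163), 97 and 130, and 440 (115 of the 163), 151 and 147 with the set term. Undoing the set shift gave 217 calls (110 of the 163), 108 in the same direction, 26 only in back and 43 in the lists. The 7 libraries of the larger set gave 2371, 502, 1170 and 50. Other count models were not run, since the deposited unit is log2. A filter on low counts removed no gene.

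The replicate numbers do not pair the samples: same-numbered control and back libraries had correlated deviations of 0.01, 0.05 and 0.08, though each of the 6 correlated best with its own number, a hint from the data and not the design. With the replicate number as a block the calls were 42 (39 of them among the 163), with 18 in the same direction and 12 only in back.

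Signs that reversed were all of genes not called. Spry1 was at 0.35 without the second back library and 0.03 without the first and the second. Pmel was at 0.01 without the second control. Dct was at -0.03 and -0.03 with log2 of the count plus 1 and plus 10, -0.08 with limma-voom and -0.03 with the shift undone. Krt14 was at 0.34 and 0.34 with plus 1 and plus 10, 0.04 without the second control, 0.03 without the third back library, 0.38 with limma-voom, 0.34 with the shift undone and 0.03 in the 7 libraries. The cause of these changes was not tested.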

Other observations

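For genes tied to body position the share to compare is again 0.387% of all genes called higher and 0.614% lower. Of 12 measured HOX genes, which mark position along the body axis, 0 were called by limma against control. Against knockout tail 1 of the 12 was called higher in back, beside 0.411% of all genes. Hoxb9, Hoxb7 and Hoxb2 had the highest differences, 2.17, 1.58 and 1.24, and Hoxd9 and Hoxd8 the lowest, -1.25 and -1.07, with adjusted p from 0.054 to 0.32. Of 9 other positional transcription factors Meis2 was the single call.

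Chemokines and cytokines leaned to higher values in back, with 16 of 20 measured positive, a median of 0.47 and 0 calls. Csf1, the growth factor of macrophages, stood at 2.05 with an adjusted p of 0.053. Cxcl10, an interferon-induced chemokine, had normalised counts of 317, 72 and 257 in control and 9924, 0 and 9359 in back, so the second back library differed from the other 2 of its group. Irf1, Rsad2 and Tap1 were noticed after their values were seen and had the same form, with 0, 0 and 5 in the second back library and at least 3311, 3483 and 5346 in the other 2. In 3 of these 4 genes the second back library had 0 counts, while Usp18, Ifitm3 and H2-K1 were high in it.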
